A study of Canis lupus familiaris with 7 samples.

Results

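Chemokines and their receptors were measured, gene by gene, in 7 primary canine osteosarcomas, a malignant tumor of bone. The members were all non-control probes whose gene symbol begins with CCL, CXCL, CCR or CXCR and a digit, or equals CX3CL1, CX3CR1, XCL1, XCR1 or IL8. This rule gave 61 probes for 43 genes, 26 ligands and 17 receptors, out of 11805 genes with a symbol on the array. At least 1 probe was well above background on 3 or more arrays for 35 of them, 22 ligands and 13 receptors, and these are the genes compared. Total RNA of each tumor was labelled with Cy3 and hybridised to an array of its own. The DLG2 deleted group held 4 tumors, from dogs aged 8, 9, 6 and 7 years (tumors 1 to 4, labelled MC, FS, MC and FS for sex), and the DLG2 wild type group held 3, from dogs aged 12, 10 and 8 years (FS, FS and MC). The breeds differed from dog to dog, the dogs received no treatment that the labels name, and each tumor is bulk tissue of a single dog. DLG2 codes for a membrane-associated scaffold protein, and the comparison asked which genes differ in expression where it is deleted.

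Chemokines are small secreted proteins that attract cells along a gradient, and their receptors are G protein-coupled receptors on the surface of the responding cell. CC and CXC ligands are named for the spacing of their first cysteines. Some, such as CCL4, CCL5 and CXCL10, are induced during inflammation and draw T cells, natural killer cells and monocytes. Others, such as CXCL12 and CCL21, are made steadily and place cells within a tissue, and in bone CXCL12 holds blood-forming cells in the marrow.

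Several facts of the arrays bear on every value below. The only probe named DLG2 (A_11_P068516, chromosome 21, canFam2 18338004 to 18338063) was well above background in all 7 tumors, at log2 intensities of 10.37, 11.44, 10.51 and 10.84 in deleted tumors 1 to 4 and 10.91, 12.03 and 11.75 in wild-type tumors 1 to 3. By these coordinates it lies outside the deleted interval that the study names, whose build is not given, so it is no settled check of the labels. Over all kept probes wild-type tumors 1 and 2 resembled each other more (Pearson r = 0.987) than the other 20 pairs (0.935 to 0.966), and values with both counted as 1 tumor are given beside the results. Wild-type tumor 2 and deleted tumors 2 and 3 shared a slide. Every other tumor was on a slide of its own. A fit with slide as a term therefore takes its group difference from the shared slide alone, with a single wild-type tumor. Its p-values carry little weight in either direction. Deleted tumors 2, 3 and 4 and wild-type tumor 2 were extracted from the scans in one session, and the other 3 arrays in another. The tumors of the shared slide all belong to the first session. Values on that slide and within that session are therefore not separate checks, as both rest on wild-type tumor 2 alone. Values within the other session rest on deleted tumor 1 alone. Of the 10 osteoblast markers listed for the tissue, 6 had a kept probe, with a summed intensity of 24873 to 168449 in deleted and 76176 to 145993 in wild-type tumors. In bulk tissue, fewer cells of a type and less RNA per cell cannot be told apart. A lower or higher level means a lower or higher log2 intensity of the same probe throughout.

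No member passed the threshold. At an unadjusted p below 0.05 with a Benjamini-Hochberg adjusted p below 0.1 (limma, over all 32309 kept probes), 0 of 48 kept member probes were called, and so was 0% of all kept probes. At the unadjusted p alone, limma placed 2349 of all probes below 0.05, and of the member probes 6 that were higher and 1 that was lower in deleted tumors. Each gene is described by its brightest kept probe (highest mean log2 intensity). By that probe, 4 of 22 ligand genes were higher in deleted tumors at an unadjusted p below 0.05 and 0 were lower, where 3.62% of all 10137 genes were higher and 3.93% lower. Of 13 receptor genes 0 were higher and 1 was lower. In 4 ligand genes all deleted tumors lay above all wild-type tumors, against 4.08% of all genes, and in 0 ligand genes below them, against 3.61%. No receptor gene had groups that did not overlap. The ligands as a list had a median log2 difference of 0.55 (deleted minus wild type), with 19 of 22 genes higher. Over all genes 52.9% were higher, the median was 0.01 and the middle range was -0.15 to 0.17. The receptors had a median of -0.01, with 6 higher and 7 lower. Without wild-type tumor 3 the ligand median was 0.34, and with wild-type tumors 1 and 2 counted as 1 it was 0.53. Within the session of deleted tumors 2 to 4, with wild-type tumor 2 alone beside them, it was 0.21, with 14 of 22 ligands higher. Within the other session, with deleted tumor 1 alone against wild-type tumors 1 and 3, it was 0.44, with 19 of 22 higher. The shares of all genes higher within the sessions are not given, so these counts were not set against the whole array. The medians over all genes within these sessions were 0.03 and -0.02.

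**Figure D1:**
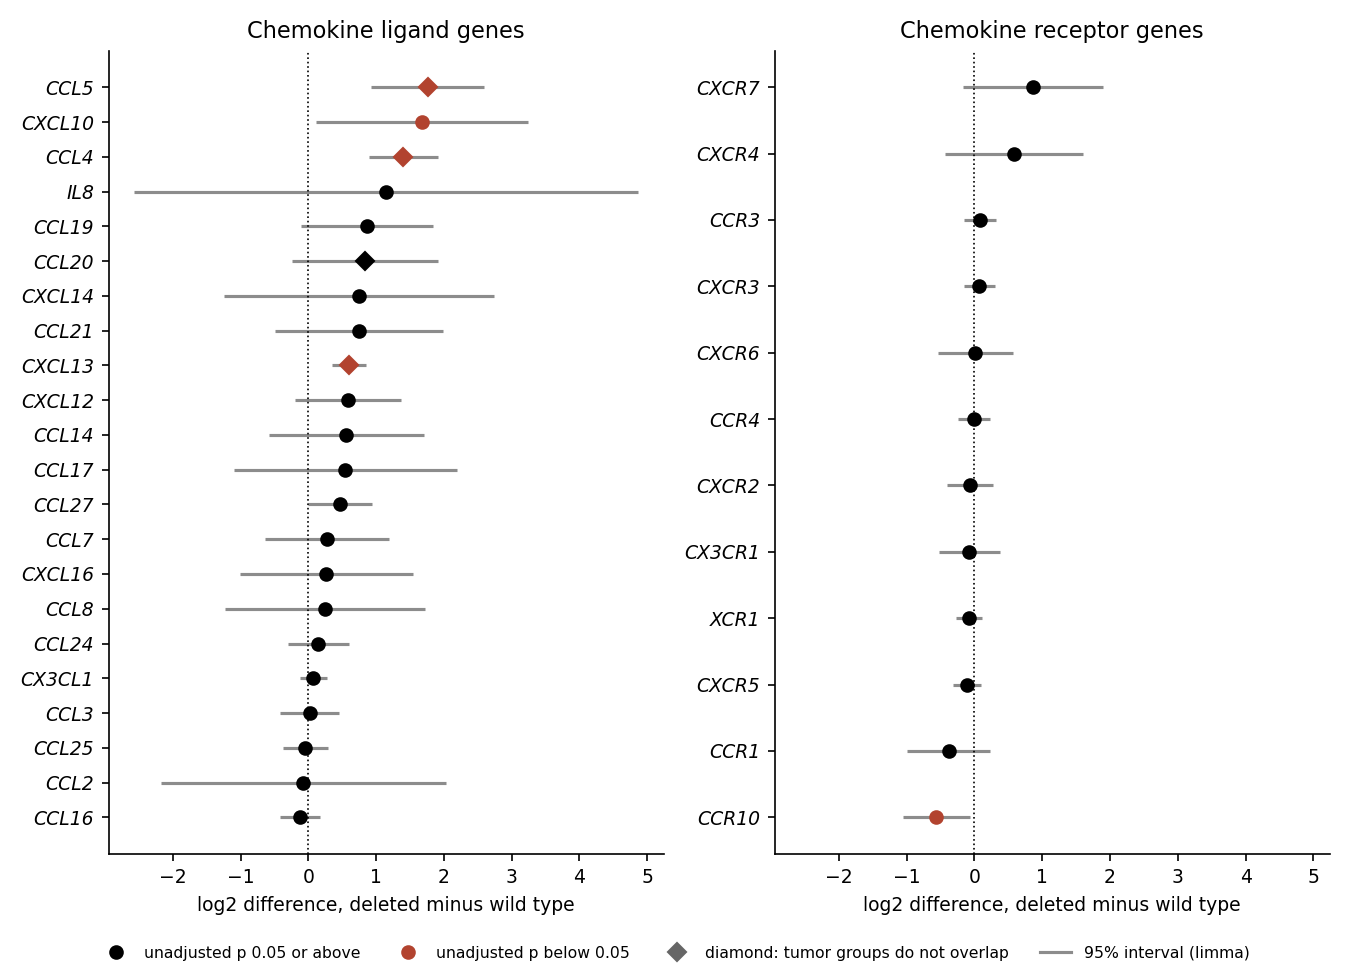
Log2 difference (deleted minus wild type, horizontal axis) of each of the 22 ligand genes and of 12 of the receptor genes with a kept probe, with the 95% interval from limma. Red marks an unadjusted p below 0.05 and a diamond marks groups that did not overlap. The intervals of CCL4, CCL5, CXCL10 and CXCL13 lie above 0, that of CCR10 lies below 0, and all other intervals include 0.

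Among the inflammatory CC ligands, CCL4 and CCL5 were higher in every deleted tumor than in any wild-type tumor. CCL4, also called MIP-1 beta, attracts T cells and monocytes. Its probe and that of its neighbor CCL3 (MIP-1 alpha) are shown because these genes are close relatives, and the capitals mark the longest stretch that both probes contain, of 6 bases.
CCL4 (A_11_P0000020101, canFam2 chr9:41001749-41001808, minus strand): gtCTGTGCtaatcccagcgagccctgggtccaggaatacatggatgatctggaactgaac
CCL3 (A_11_P0000020102, canFam2 chr9:41015013-41015501, plus strand): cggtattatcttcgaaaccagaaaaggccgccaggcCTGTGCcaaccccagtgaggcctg

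The CCL4 probe had log2 intensities of 9.50, 9.16, 9.14 and 8.63 in deleted tumors 1 to 4 and 7.67, 7.93 and 7.51 in wild-type tumors 1 to 3. The lowest deleted tumor thus lay above the highest wild-type tumor. The difference was 1.40 (SE 0.22, 95% interval 0.89 to 1.92), a fold of 2.65, with an unadjusted p of 0.00037 and an adjusted p of 0.382 (limma). By exact permutation of the tumors (two-sided) p was 0.0571, the lowest value within reach of 4 against 3 tumors. On the shared slide the difference was 1.22, within the sessions 1.04 and 1.91, and with wild-type tumors 1 and 2 counted as 1 it was 1.45. On the processed intensity with quantile normalization it was 2.11. The second CCL4 probe, designed from an expressed sequence tag (EST) on the opposite strand, was well above background on 2 arrays only and was not kept.

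CCL5, or RANTES, is released by activated T cells and other cells and attracts T cells, monocytes and eosinophils. Its probe (A_11_P0000019736, chromosome 9, canFam2 41144182 to 41144241) read 11.37, 10.23, 11.14 and 10.10 in deleted tumors 1 to 4 and 8.93, 9.24 and 8.67 in wild-type tumors 1 to 3 on the log2 scale. Deleted tumors 1 and 3 were the highest, and the groups did not overlap. The difference was 1.76 (SE 0.35, 95% interval 0.92 to 2.60), a fold of 3.39, with an unadjusted p of 0.0017 and an adjusted p of 0.434 (limma), and p was 0.0571 by exact permutation (two-sided). It was 1.45 on the shared slide, where the unadjusted p of the slide-blocked limma fit was 0.065. It was 1.25 and 2.56 within the sessions and 1.83 with wild-type tumors 1 and 2 counted as 1.

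The probes of CCL3 differed from each other. The probe shown above read 6.74, 7.32, 7.00 and 6.79 in deleted and 6.86, 6.77 and 7.21 in wild-type tumors, a difference of 0.02 (95% interval -0.41 to 0.45). Its mean over the arrays was only slightly above that of the other kept CCL3 probe (A_11_P0000025427, chromosome 9, canFam2 41029023 to 41029082), which lies about as far from the first as CCL3 does from CCL4 and on the other strand. That probe read 7.58, 7.43, 6.83 and 6.99 in deleted and 6.54, 6.62 and 6.68 in wild-type tumors, and its groups did not overlap. It differed by 0.60 (SE 0.20, unadjusted p = 0.019, adjusted p = 0.597, limma). Which of them measures the CCL3 transcript of these tumors was not tested. The remaining CCL3 probe was above background on 0 arrays.

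The monocyte chemoattractants CCL2, CCL7 and CCL8 varied more among tumors of a group than between the groups. CCL2 (MCP-1), the main attractant of monocytes, read 11.12, 13.04, 12.20 and 10.28 in deleted and 11.69, 13.28 and 10.22 in wild-type tumors. Deleted tumor 2 and wild-type tumor 2 were the highest and deleted tumor 4 and wild-type tumor 3 the lowest. The CCL2 difference was -0.07, with an interval of -2.18 to 2.03. CCL8 (MCP-2) read 8.27, 9.49, 8.98 and 7.63 in deleted and 8.28, 9.48 and 7.27 in wild-type tumors, in nearly the same order, and differed by 0.24. CCL7 (MCP-3) read 8.05 in deleted tumor 2 and between 6.53 and 7.00 in the other 6 tumors, and differed by 0.28. The related CCL13 was well above background on 1 array, deleted tumor 3 being its highest at 6.95, and was not kept.

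**Figure D2:**
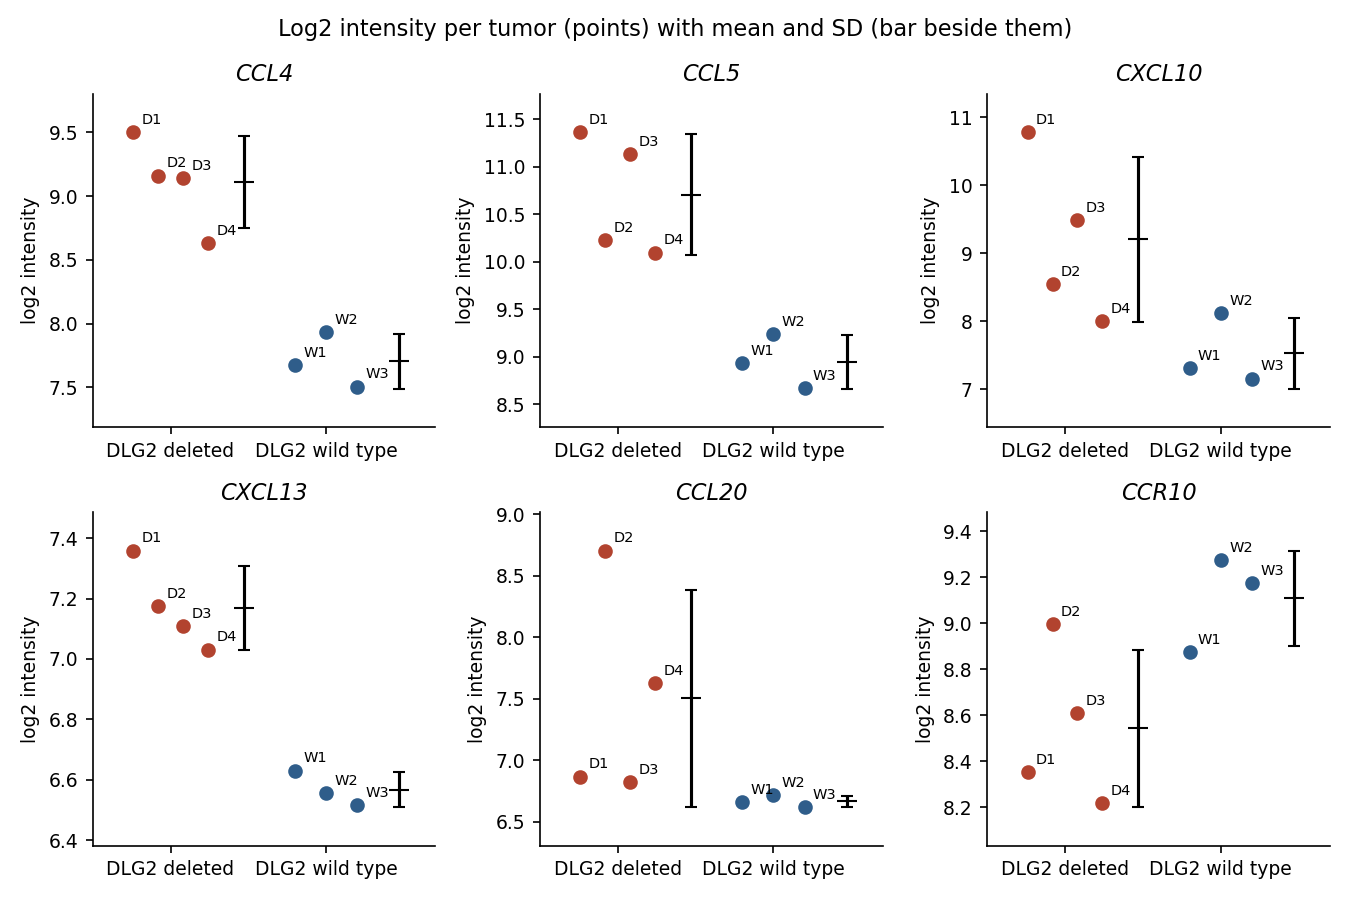
Log2 intensity of the probe of each of 6 genes (CCL4, CCL5, CXCL10, CXCL13, CCL20 and CCR10) in every tumor, with the group's mean and SD as a bar beside the points (n = 4 deleted, n = 3 wild type), each panel on its own vertical axis. The groups do not overlap for CCL4, CCL5, CXCL13 and CCL20, while for CXCL10 deleted tumor 4 lies below wild-type tumor 2 and for CCR10 deleted tumor 2 lies above wild-type tumor 1.

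IL8 (CXCL8), the neutrophil attractant, was the only ligand of that role among the members. It had 4 kept probes, and all of them put the tumors in a similar order. The brightest read 9.72, 13.23, 7.38 and 7.67 in deleted tumors 1 to 4 and 7.95, 10.36 and 6.76 in wild-type tumors 1 to 3. Deleted tumor 2 was the highest on all 4 probes and wild-type tumor 3 the lowest. The differences of the probes were 1.15, 0.75, 0.88 and 0.92, and the interval of the first was -2.58 to 4.87. Within the session of deleted tumors 2 to 4 the first probe differed by -0.93 and within the other session by 2.37. The neutrophil markers S100A8 and S100A9 were also highest in deleted tumor 2, at 11.98 and 11.77, and next in wild-type tumor 2, at 10.41 and 10.45. CSF3R and LTF were highest in deleted tumor 2 as well, at 7.51 and 8.01. CAMP was highest in wild-type tumor 2, at 8.81, against 8.67 in deleted tumor 2. MPO was highest in wild-type tumor 1, at 9.15, and read 8.50 in wild-type tumor 2 and 7.58 in deleted tumor 2. The neutrophil marker list had 6 of 8 genes kept, and its summed intensity ranged from 1194 to 8577 in deleted and from 1101 to 3930 in wild-type tumors. Its part in the IL8 values was not tested.

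CXCL10 (IP-10), which interferons induce and which attracts T cells through CXCR3, was higher in most deleted tumors. Its 2 probes from the same transcript are shown because they overlap, with the 54 bases they share in capitals.
CXCL10 (A_11_P058961, canFam2 chr32:3563193-3563252, minus strand): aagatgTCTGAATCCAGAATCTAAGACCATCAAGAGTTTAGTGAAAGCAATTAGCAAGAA
CXCL10 (A_11_P0000020166, canFam2 chr32:3562730-3563246, minus strand): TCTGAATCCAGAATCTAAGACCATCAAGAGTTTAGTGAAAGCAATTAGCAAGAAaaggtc

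The first of them read 10.78, 8.54, 9.48 and 8.00 in deleted tumors 1 to 4 and 7.31, 8.12 and 7.15 in wild-type tumors 1 to 3. Deleted tumor 1 was far above the rest, and deleted tumor 4 lay below wild-type tumor 2. The difference was 1.68 (SE 0.66, 95% interval 0.11 to 3.24), a fold of 3.20, with an unadjusted p of 0.039 and an adjusted p of 0.669 (limma), and p was 0.114 by exact permutation (two-sided). The second probe read 10.25, 8.10, 8.81 and 7.56 in deleted and 7.05, 7.62 and 6.96 in wild-type tumors, a difference of 1.47. Because most of their bases are the same, both probes count as 1 measurement. An EST probe on the opposite strand (A_11_P000003319) differed by 0.39 and was highest in deleted tumor 4, at 8.43. The difference of the first probe was 0.89 on the shared slide, with an unadjusted p of 0.184 in the blocked limma fit, and 1.15 without deleted tumor 1. It was 0.56 and 3.55 within the sessions, 1.77 with wild-type tumors 1 and 2 counted as 1, and 2.49 on the processed intensity with quantile normalization.

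CXCL13, which attracts B cells through CXCR5, was slightly higher in all deleted tumors. Its probe (A_11_P058996, chromosome 32, canFam2 5016848 to 5016907) read 7.36, 7.17, 7.11 and 7.03 in deleted tumors 1 to 4 and 6.63, 6.55 and 6.52 in wild-type tumors 1 to 3. The spread within each group was small and the groups did not overlap. The difference was 0.60 (SE 0.11, 95% interval 0.35 to 0.85), a fold of 1.52, with an unadjusted p of 0.00082 and an adjusted p of 0.382 (limma), and p was 0.0571 by exact permutation (two-sided). It was 0.59 on the shared slide, where the blocked limma fit gave an unadjusted p of 0.053. It was 0.55 and 0.79 within the sessions and 0.61 with wild-type tumors 1 and 2 counted as 1. The signal was close to background, where the lowest signals well above background on the arrays lay between 5.70 and 6.50. The difference was 2.50 on the processed intensity with quantile normalization. It was 1.26 with normexp and scaling to the 75th percentile, where the median over all kept probes was itself 0.32.

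CCL20 (MIP-3 alpha), the ligand of CCR6, was above the wild-type range in every deleted tumor, but by very unequal amounts. Its probe is shown because the files give it no position on canFam2.
CCL20 (A_11_P0000020105): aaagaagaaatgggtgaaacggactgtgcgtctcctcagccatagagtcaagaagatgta

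It read 6.87, 8.71, 6.82 and 7.63 in deleted tumors 1 to 4 and 6.66, 6.71 and 6.62 in wild-type tumors 1 to 3. Deleted tumors 2 and 4 stood out, and deleted tumors 1 and 3 exceeded wild-type tumor 2 by little. The difference was 0.84 (SE 0.45, 95% interval -0.24 to 1.92), a fold of 1.79, with an unadjusted p of 0.11 and an adjusted p of 0.766 (limma). By exact permutation (two-sided) p was 0.0571, which every gene with groups that do not overlap has here. CCL20 was tested because its groups did not overlap, so this value adds nothing to that. The difference was 0.44 without deleted tumor 2, 1.05 on the shared slide, 1.004 and 0.23 within the sessions, and 0.85 with wild-type tumors 1 and 2 counted as 1. With normexp and scaling to the 75th percentile it was 1.60, and on the processed intensity with quantile normalization 2.46.

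The remaining ligands are given as levels and differences, with no test. The ligands of CCR7, CCL19 and CCL21, guide dendritic and T cells to lymph nodes. CCL19 read 7.82, 6.67, 8.39 and 7.04 in deleted and 6.48, 6.86 and 6.49 in wild-type tumors, a difference of 0.87, and was well above background in 4 deleted and 1 wild-type tumor. CCL21 read 8.00, 6.46, 8.57 and 6.80 in deleted and 6.48, 6.66 and 7.00 in wild-type tumors, a difference of 0.74. Both were highest in deleted tumors 3 and 1, and their probes lie close to each other and to that of CCL27 on chromosome 11 (canFam2 54364290 to 54404559 in all). CCL27, a skin ligand of CCR10, read between 7.83 and 8.64 in deleted and between 7.59 and 7.86 in wild-type tumors, and differed by 0.47.

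Stromal CXCL12 (SDF-1) read 9.38, 9.90, 10.42 and 10.51 in deleted and 9.78, 9.64 and 8.97 in wild-type tumors, and its 2 probes differed by 0.59 and 0.52. CXCL14, made by epithelial and stromal cells, read between 11.62 and 12.83 in the 4 deleted tumors and 12.56, 12.75 and 9.38 in wild-type tumors 1 to 3. Its difference of 0.75 came with the low value of wild-type tumor 3, and on the shared slide it was -0.92. CXCL16, a ligand of CXCR6 found on macrophages, read 10.80, 9.83, 10.65 and 8.84 in deleted and 9.84, 10.39 and 9.06 in wild-type tumors and differed by 0.27. CX3CL1 (fractalkine) read between 6.79 and 6.96 in all tumors and differed by 0.07.

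CCL14, which is found in plasma, read 9.90, 10.10, 11.48 and 9.81 in deleted and 9.24, 9.59 and 10.46 in wild-type tumors, and its difference was 0.56. A second CCL14 probe, whose value in deleted tumor 1 carried an outlier mark and was left out of its fit, differed by 0.65. CCL17 (TARC), a ligand of CCR4 on helper T cells, read 9.72 in deleted tumor 1 and between 6.81 and 7.29 in the other 6 tumors, a difference of 0.55. CCL24 (eotaxin-2) differed by 0.15, CCL25 by -0.05 and CCL16 by -0.12. The kept CCL16 probe and the other CCL16 probe, well above background on 0 arrays, map to different places on chromosome 9 (canFam2 57264673 and 41111386). CCL1, CCL26 and CCL28 were above background on at most 1 array each and were not kept.

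**Figure D3:**
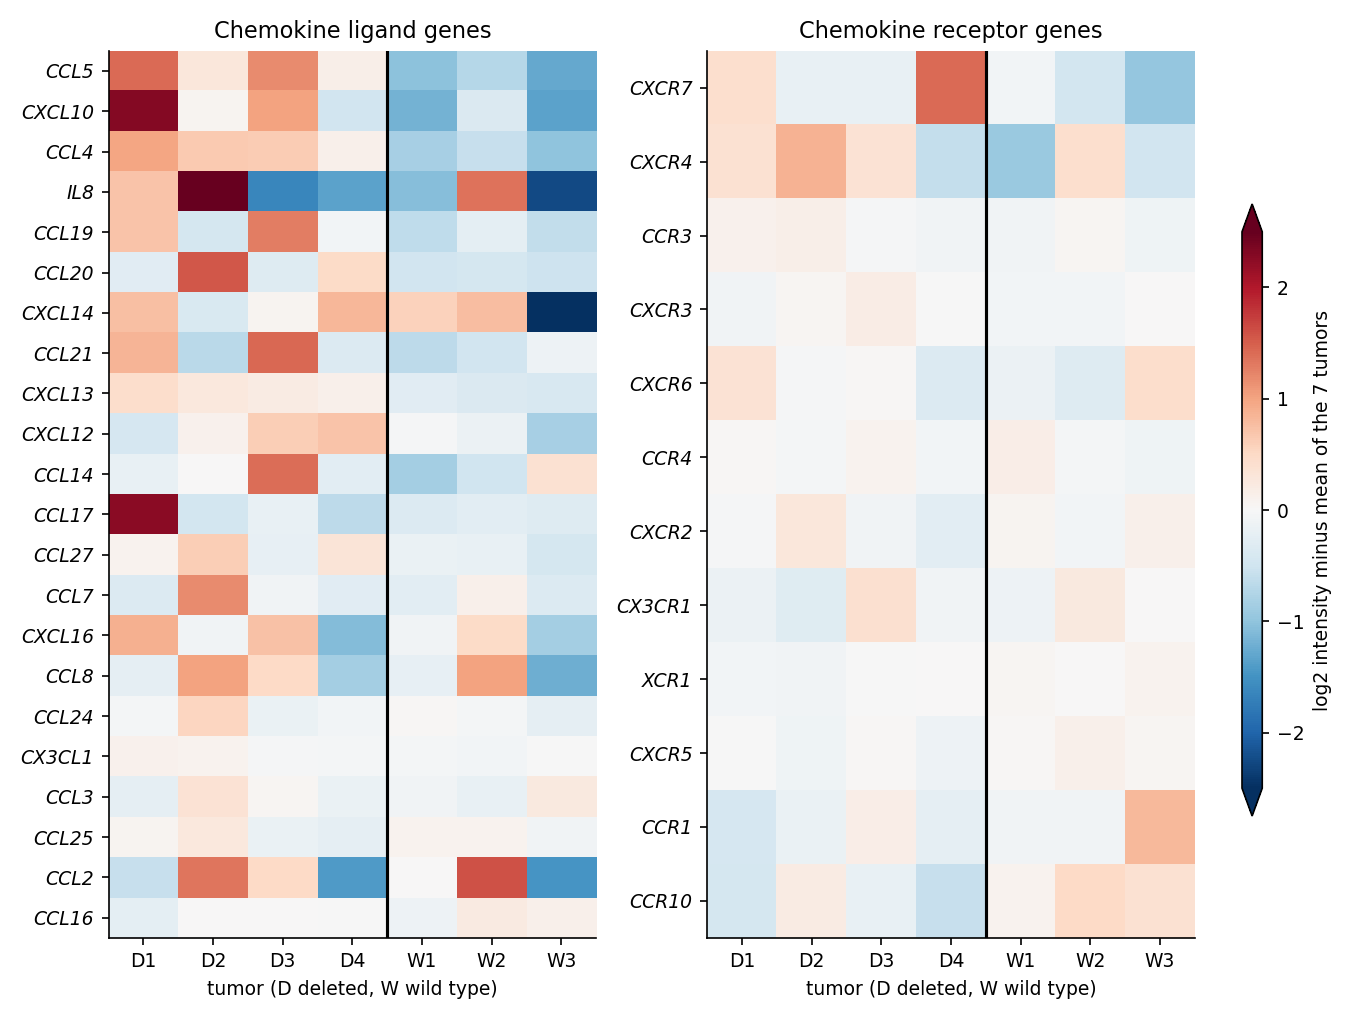
Log2 intensity of each ligand gene (left) and of 12 receptor genes (right) in each tumor, as the deviation from the gene's mean over the 7 tumors (color scale, log2 units, colors saturate beyond 2.5 in either direction), with genes ordered by their difference. IL8 and CCL2 share high values in deleted tumor 2 and wild-type tumor 2, CCL17 is high in deleted tumor 1 only, and most receptors stay near 0.

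Tumors differed in which ligands were high. Over the 22 ligand genes the median deviation from the gene's mean was 0.09, 0.26, 0.13 and -0.12 in deleted tumors 1 to 4 and -0.23, -0.17 and -0.48 in wild-type tumors 1 to 3. Deleted tumor 2 held the highest value in 8 ligand genes and deleted tumor 1 in 7, and wild-type tumor 3 held the lowest value in 13. For the 13 receptors the same medians lay between -0.12 (deleted tumor 4) and 0.04 (deleted tumor 3).

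Of the receptors, CCR10, which binds CCL27 and CCL28, was the only one at an unadjusted p below 0.05, and it was lower in deleted tumors. Its probe is shown because it is the only receptor probe given with a test.
CCR10 (A_11_P081471, canFam2 chr9:23627287-23627346, plus strand): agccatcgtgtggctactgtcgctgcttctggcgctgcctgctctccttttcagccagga

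It read 8.35, 8.99, 8.61 and 8.22 in deleted tumors 1 to 4 and 8.87, 9.28 and 9.17 in wild-type tumors 1 to 3. Deleted tumor 2 lay above wild-type tumor 1, so the groups overlapped. The difference was -0.57 (SE 0.21, 95% interval -1.06 to -0.07), a fold of 0.676, with an unadjusted p of 0.03 and an adjusted p of 0.643 (limma), and p was 0.114 by exact permutation (two-sided). It was -0.47 on the shared slide (unadjusted p = 0.178 in the blocked limma fit), -0.67 within each session and -0.58 with wild-type tumors 1 and 2 counted as 1. Without deleted tumor 1, 3 or 4 or wild-type tumor 2 or 3, its unadjusted p was above 0.05 and 0 receptors were below it. With normexp and scaling to the 75th percentile, under which the median difference of all kept probes was 0.32, CCR10 differed by -0.56.

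Receptors of the ligands above are given side by side with them, as levels and differences with no test. CCR1, which binds CCL3 and CCL5, differed by -0.38, with wild-type tumor 3 the highest at 7.70. CCR3, the eotaxin receptor, differed by 0.08. CXCR3, the receptor of CXCL10, read between 6.81 and 7.08 in all tumors and differed by 0.07 (interval -0.16 to 0.30). CXCR5, the receptor of CXCL13, differed by -0.11 (interval -0.32 to 0.09), and CCR6, the receptor of CCL20, was above background on 0 arrays.

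The CXCL12 receptors had larger differences with wide intervals. CXCR4 read 9.45, 9.94, 9.44 and 8.48 in deleted and 8.15, 9.49 and 8.60 in wild-type tumors, a difference of 0.58 (interval -0.43 to 1.59). CXCR7, now called ACKR3, which takes up CXCL12 without G protein signaling, read 10.28, 9.67, 9.68 and 11.28 in deleted and 9.79, 9.40 and 8.90 in wild-type tumors, a difference of 0.86 (interval -0.17 to 1.89). Deleted tumor 4 was the highest and wild-type tumor 3 the lowest for CXCR7 and for the brightest CXCL12 probe. On the second CXCL12 probe deleted tumor 3 was the highest, at 9.73, against 9.25 in deleted tumor 4. Wild-type tumor 3 was its lowest at 7.68, close to deleted tumor 1 at 7.72. CXCR4 was lowest in wild-type tumor 1. Its difference was 0.20 on the shared slide and -0.20 and 1.08 within the sessions, and that of CXCR7 was 0.27 on the slide and 0.80 and 0.94 within the sessions.

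The other receptors differed little in this processing, where the offset understates differences of dim probes. The IL8 receptor CXCR2 differed by -0.06 (interval -0.40 to 0.27), CX3CR1 by -0.08, CXCR6 by 0.01, CCR4, the receptor of CCL17, by -0.01 (interval -0.25 to 0.23) and XCR1 by -0.09. XCR1 was well above background in 1 deleted and 3 wild-type tumors. CCR2, the receptor of CCL2, and CCR9 were above background on 0 arrays. CCR7 was above background in wild-type tumor 1 alone, at 8.01, and read between 6.37 and 6.52 in the other 6 tumors. Under at least 1 of 3 other settings of intensity and scaling, 12 of the 35 member genes had a difference of the opposite sign. With normexp and the 75th percentile CCR1, CCR4, CX3CR1, CXCR2, CXCR5 and XCR1 were higher in deleted tumors, beside the median of 0.32 over all kept probes under that setting. On the processed intensity CXCR3 differed by -0.02 with the 75th percentile and CCR4 by 0.10 with quantile normalization. With the 75th percentile on that intensity, CCR1 differed by -1.97, XCR1 by -1.34, CX3CR1 by -0.94, CXCR2 by -0.61 and CXCR5 by -0.60. CCR3 differed by 0.35 and CXCR6 by 0.06 there. The directions of CCL4, CCL5, CXCL10, CXCL13, CCL20 and CCR10 were the same under all 3.

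Some members are encoded next to each other. A stretch of chromosome 9 (canFam2 41001749 to 42331537) held probes of 10 ligand genes, of which 7 were kept (CCL2, CCL3, CCL4, CCL5, CCL7, CCL8 and CCL14). Of these, 6 were higher in deleted tumors, beside 52.9% of all genes. The differences ran from -0.07 for CCL2 to 1.76 for CCL5, with a median of 0.28. By the brightest probe of each gene 2 of the 7, CCL4 and CCL5, were higher at an unadjusted p below 0.05, against 3.62% of all genes. Between probes of different member genes, the longest run of shared bases was 17, between a CCL14 and a CCL3 probe.

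For 6 member genes (CCL2, CCL4, CCL14, CCL21, CCL28 and CXCL10) the array carried an EST probe on the strand opposite to that of the gene's transcript probes, by the order of its coordinates. The opposite-strand probes of CCL2, CCL14 and CCL21 differed by -0.03, 0.08 and 0.16, where the gene's brightest probe differed by -0.07, 0.56 and 0.74. For CCL2 the opposite-strand probe read between 6.57 and 7.21, for CCL14 between 6.86 and 7.52 and for CCL21 between 6.62 and 7.22. The direction of those ESTs was not checked against a genome here.

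**Figure D4:**
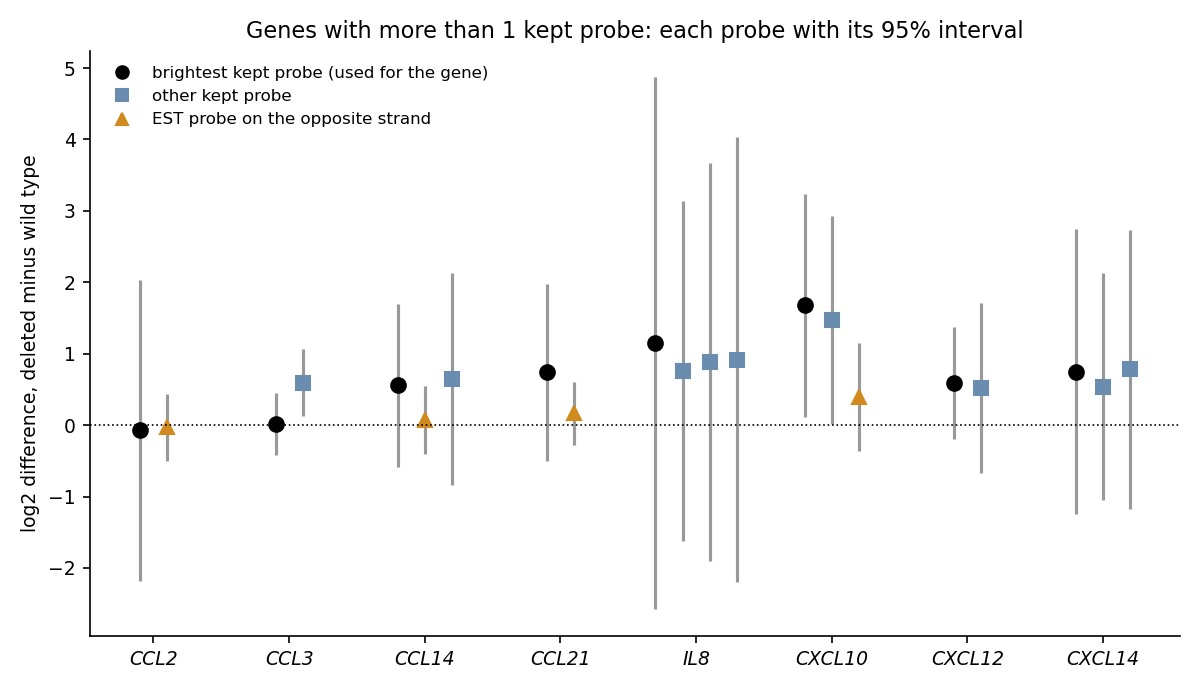
Log2 difference (deleted minus wild type) with its 95% interval for every kept probe of the 8 member genes with more than 1 kept probe. Black circles are the probes used for the gene, blue squares other probes and orange triangles EST probes on the opposite strand. The CCL3 probes stand apart at 0.02 and 0.60, and the IL8 intervals are the widest.

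Genes around the chemokine system were taken from lists. Among 26 kept genes of signal transmission behind the receptors, 3 were higher at an unadjusted p below 0.05 and 0 lower, against 3.62% and 3.93% of all genes, and the list's median was 0.08. JAK2, a kinase of cytokine receptors, read 9.17, 9.17, 8.96 and 9.09 in deleted and 8.31, 8.63 and 8.65 in wild-type tumors, and its groups did not overlap. Among 7 genes of receptor desensitisation and 3 atypical receptors, 0 were below that p, with medians of 0.13 and 0.15. DPP4, a protease that trims chemokines, read 8.75, 10.08, 10.03 and 8.96 in deleted and 11.24, 9.20 and 13.05 in wild-type tumors, a difference of -1.71.

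Leukocyte markers were read beside the ligands. Of 13 T cell markers listed, 7 were on the array and 5 were kept, of which 3 were higher in deleted tumors at an unadjusted p below 0.05 and 0 lower, beside the same 3.62% and 3.93% of all genes. LCK, a T cell kinase, read 9.01, 8.98, 8.84 and 8.15 in deleted and 8.02, 8.02 and 7.82 in wild-type tumors, and CD3E and CD8A differed by 0.51 and 0.36. The groups did not overlap for these 3 genes, all higher in deleted tumors, as was so for 4.08% of all genes. The summed intensity of the list ranged from 1096 to 1611 in deleted and from 1131 to 1318 in wild-type tumors, so the sums overlapped. CD3D, CD3G and CD2 had no probe under these symbols. Of 11 cytotoxic markers 5 were kept, of which GZMA and KLRD1 were higher at that p and 0 were lower. GZMA (granzyme A) read 7.97, 8.09, 8.40 and 8.12 in deleted and 6.73, 6.70 and 6.72 in wild-type tumors, and its adjusted p of 0.120 (limma) was the smallest over all kept probes. KLRD1, a receptor of natural killer cells, differed by 0.41 (unadjusted p = 0.022, adjusted p = 0.612, limma). That list summed to between 1480 and 3752 in deleted and between 1782 and 5105 in wild-type tumors, with NKG7 differing by -0.18 and PRF1 by 0.02. The macrophage list had 10 of 12 genes kept, 0 of them at an unadjusted p below 0.05, a median of -0.09, and sums of 7095 to 42861 in deleted and 11229 to 15632 in wild-type tumors. Deleted tumor 1, the highest tumor for CCL4, CCL5 and CXCL10, had the lowest macrophage values, with a median deviation of -1.02. The part of these markers in the ligand differences was not tested.

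**Figure D5:**
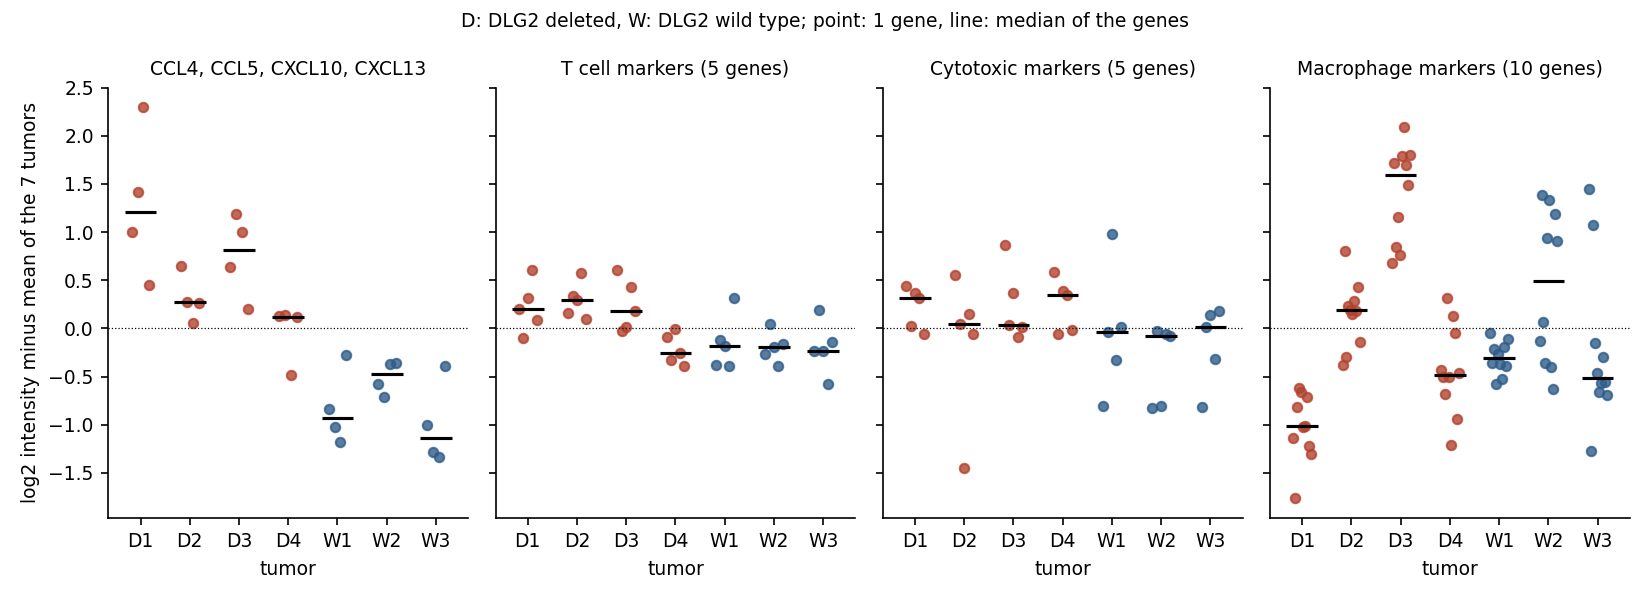
Deviation of log2 intensity from the gene's mean over the 7 tumors (vertical axis) in each tumor, for CCL4, CCL5, CXCL10 and CXCL13, 5 T cell markers, 5 cytotoxic markers and 10 macrophage markers, with 1 point a gene and a line at the median. All 4 ligands are below 0 in the 3 wild-type tumors, and the macrophage medians run from -1.02 in deleted tumor 1 to 1.59 in deleted tumor 3.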

How the data were processed

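The authors hybridised Cy3-labelled RNA of 7 canine osteosarcomas, each to its own Agilent Canine V2 array. The deposited files are output of Agilent Feature Extraction 10.7.3.1 (per the labels) and give for every spot a linear intensity, the intensity of its local background and a processed intensity. The study's methods name RMA normalization and correction for a batch that they do not define. Coordinates were those of the files (canFam2). Where a probe lies within its transcript was not analysed here.

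From the deposited intensity, the background of the mean spot signal was removed by normexp (saddle, offset 50, median local background) in limma 3.58.1 (R 4.3.3). The log2 values were then quantile normalized between the arrays, 144 values marked as outliers were set aside and replicate spots were averaged. Of 43603 probes, 32309 were well above background on at least 3 arrays and were kept. Between 30280 and 34538 probes per array were well above background, 0 spots were saturated, and the number of arrays limits the precision. With an offset, differences of dim probes are understated.

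Groups were taken from the labels. Tumor numbers within a group name a tumor and pair nothing, and p-values measure the spread between these tumors. Deleted and wild-type tumors were compared with limma (lmFit and eBayes, two-sided, no covariates) over all kept probes, and exact permutation tests over the 35 ways to draw 4 of 7 tumors were added for 6 genes. A member gene was given with its test where its brightest kept probe was at an unadjusted p below 0.05 or its groups did not overlap, and otherwise without. Groups that do not overlap fix the exact permutation p at 0.0571. The members, the marker and signaling lists, the naming rule and the alternatives were chosen with earlier results of these data known. The code was tested on simulated data. The alternatives were other background corrections, scalings, filters and limma options, the methods' t-test, slide, extraction session, sex or age as a term, wild-type tumors 1 and 2 as 1, each tumor left out, and the mean over a gene's probes. The counts and medians over the receptor and signaling lists also cover members with no values of their own in the text or figures; these are not reported here.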

Additional observations from a re-analysis of the deposited data

Results flagged for a closer look

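The 4 deleted tumors were examined in 37 sets of values, those of the 35 member genes with a kept probe and the median deviations of the ligands and of the receptors, for a tumor that stands apart, and 3 exceeded Dixon's critical value for the gap to the nearest tumor over the range of the 4. Chance gives about 1 such set in 20. CCL17 in deleted tumor 1 read 9.72, against 7.29 in the next tumor, a ratio of 0.837. CCL7 in deleted tumor 2 read 8.05, against 6.79, a ratio of 0.833. CCL16 in deleted tumor 1 read 6.92, below the next tumor at 7.16, a ratio of 0.905.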

How the results depend on the processing

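The precision is limited by 7 arrays. An offset shrinks the log2 differences of dim probes, such as those of CXCL13 and CCL20. No alternative changed the offset alone, so its part in their values was not tested. No paired analysis was possible because the labels pair no tumors. With slide, session, sex or age as a term, counts of groups that did not overlap could not be given. The count of called member probes was 0 under all 21 alternatives. The differences of CCL4, CCL5, CXCL10, CXCL13, CCL20 and CCR10 kept their direction under all 21 alternatives, and their adjusted p stayed above 0.1 (limma), at 0.121 or more. The adjusted p of CCL4 ranged from 0.141 to 0.9999. CCL4 was below an unadjusted p of 0.05 in 21 of them, CCL5 and CXCL13 in 20, CXCL10 in 14, CCR10 in 10 and CCL20 in 4.

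Ligands below an unadjusted p of 0.05, 4 as reported, numbered 7 on the processed intensity with quantile normalization and 1 with slide as a block (CCL4), and their median of 0.55 became 0.73 on that intensity, 0.72 with normexp and the 75th percentile and 0.37 without a filter. Receptors below that p, 1 as reported, numbered 2 on the processed intensity with the 75th percentile and 0 with normexp and the 75th percentile, the methods' t-test, array weights, slide or sex. Receptors whose groups did not overlap, 0 as reported, numbered 1 on the processed intensity with the 75th percentile, 2 with normexp and the 75th percentile and 4 with wild-type tumors 1 and 2 as 1, which compares fewer tumors. The receptor median of -0.01 became 0.10 on the processed intensity with quantile normalization, 0.64 with normexp and the 75th percentile, 0.059 with slide, -0.12 with age and -0.066 with wild-type tumors 1 and 2 as 1. With normexp and the 75th percentile the median over all kept probes was itself 0.32. For the counts under other settings and with tumors left out, the shares of all genes are not given. Those counts were therefore not set against the whole array. Other causes were not tested.

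With each tumor left out in turn, ligands below that p numbered 3 to 5, ligands whose groups did not overlap 5 to 6, and the ligand median ran from 0.34 (without wild-type tumor 3) to 0.64, with 0.39 without deleted tumor 2. Receptors below that p numbered 0 to 1 and receptors whose groups did not overlap 0 to 3, the highest without wild-type tumor 1, and the receptor median ran from -0.05 to 0.02.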

Other observations

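Some probes name a chemokine in their description only and carry no symbol, so they are no members. A probe described as a fragment of CCL3 (A_11_P0000025428, chromosome 9, canFam2 41060379 to 41060438) read 8.65, 13.21, 12.75 and 10.73 in deleted tumors 1 to 4 and 9.63, 11.24 and 7.05 in wild-type tumors 1 to 3, with overlapping groups. A probe described as CCL22 (A_11_P0000030890) read between 10.93 and 12.28 in all tumors and differed by -0.48 (deleted minus wild type). Further probes described as CCL21 (A_11_P0000038820 and A_11_P200708) were highest in deleted tumors 3 and 1, as was the member probe of CCL21, and differed by 0.97 and 0.82.

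The other marker lists were read in the same way. Cartilage markers were higher in all 7 kept genes, with a median difference of 0.84, and endothelial markers in all 7, with a median of 0.47. Of all genes, 52.9% were higher. In both lists 0 genes were at an unadjusted p below 0.05. Osteoclast markers were lower in all 6 kept genes, with a median of -1.45, and osteoblast markers in 5 of 6, with a median of -0.55, again with 0 genes below that p. By tumor, the median deviation of the osteoclast list was -1.19, -0.17, 0.53 and -1.06 in deleted tumors 1 to 4 and 0.53, -0.51 and 2.28 in wild-type tumors 1 to 3, so wild-type tumor 3 was far the highest. That of the cartilage list was -0.55, 1.98, 0.86 and -0.56 in deleted and -0.02, -0.62 and -0.79 in wild-type tumors, so deleted tumors 2 and 3 alone were above 0. Fibroblast markers had a median of 0.59, with 1 of 7 genes below that p, adipocyte markers 0.82 (with a median deviation of 3.12 in deleted tumor 4 and between -0.61 and -0.28 in the other 6 tumors), B cell markers 0.09 with 1 of 4, dendritic markers 0.09 and pan-leukocyte markers 0.20. The fibroblast and the B cell gene below that p were higher in deleted tumors, where 3.62% of all genes were higher at that p. The erythroid list had no kept gene.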
